A study of Mus musculus with 8 samples.

Results

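The conjugating enzymes of the UGT, GST and SULT families were examined in livers of mice labelled Brap LKO and Brap F/F. The 52 genes are those of 24451 in the deposited table that are annotated as protein coding and carry a mouse symbol of these families, and they comprise 21 GST, 19 UGT and 12 SULT genes. Membrane-bound microsomal transferases and other conjugating enzymes were not counted among them. The RNA of the left liver lobe of 8 C57BL/6 male mice was sequenced, 4 in each group, each 18 wk of age and without food for 6 h. All 8 mice carried floxed Brap alleles (Brap fl/fl). The Brap LKO mice also carried Alb Cre (Alb Cre+), in which the albumin promoter drives the recombinase in hepatocytes, while the Brap F/F mice, the controls, labelled wild type, were Alb Cre-. The controls therefore lacked the transgene as well as the deletion, and the RNA was that of whole tissue, in which fewer cells of a type and less RNA per cell cannot be told apart.

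Phase II enzymes attach a polar group to drugs, steroids, bile acids, bilirubin and reactive lipids, which makes them soluble and ready for export. UGT enzymes sit in the endoplasmic reticulum and transfer glucuronic acid from UDP-glucuronic acid. GST enzymes are mostly cytosolic and transfer glutathione, and SULT enzymes are cytosolic and transfer sulfate from PAPS. The liver is the main site of all of these reactions. Many of the genes lie in tandem clusters of near copies, and in mice several are expressed at different levels in males and females or are raised by the receptors CAR and PXR or by the redox factor NRF2.

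Near copies limit what reads of 50 bases can assign to a gene, so the sequences of the pairs on which results turn are shown first. The Gstp1 and Gstp2 genes lie side by side on the minus strand of chromosome 19, and 618 of 630 coding bases (98.1%) are identical. The stretches below, from exon 5 of each gene, span coding bases 241 to 330. They lie at chr19:4036694-4036783 and chr19:4040988-4041077 of the mm10 build, and capitals mark the 6 bases that differ. Among stretches of this length within an exon, they were picked for the most differing bases.
Gstp1: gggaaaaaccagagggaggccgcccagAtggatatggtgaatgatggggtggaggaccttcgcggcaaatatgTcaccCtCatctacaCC
Gstp2: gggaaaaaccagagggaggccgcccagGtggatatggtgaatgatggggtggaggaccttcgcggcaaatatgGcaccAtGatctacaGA
Of the 50-base windows of the Gstp2 transcripts, 45.7% occur in no other gene. The sulfotransferase Sult2a7 is a different case, because 62.6% of its coding sequence matches that of its neighbour Sult2a8 and 100% of its windows are its own. The stretches below lie on the minus strand of chromosome 7. They are in exon 3 of Sult2a7 (chr7:14490026-14490115) and exon 4 of Sult2a8 (chr7:14423437-14423526), with the 41 bases that differ in capitals. These, too, were picked for the most differing bases.
Sult2a7: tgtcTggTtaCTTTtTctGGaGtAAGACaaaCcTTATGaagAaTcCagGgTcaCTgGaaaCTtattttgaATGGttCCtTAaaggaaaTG
Sult2a8: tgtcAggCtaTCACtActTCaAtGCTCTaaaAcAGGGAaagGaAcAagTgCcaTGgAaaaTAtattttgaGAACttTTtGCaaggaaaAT

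Across the families, the share of windows found in no other gene ran from 9.50% for Gsta1 to 100% (plot of windows by gene). It was also low among the 9 Ugt1a genes on chromosome 1, at under 50% in each, which all share 1311 exon bases of a common end. Ugt1a7c shares 2170 annotated exon bases with Ugt1a6a, and the longest coding sequences of both are identical. Ugt1a1, with the lowest share of this cluster, had 19.8% of windows of its own and Ugt1a6a, with the highest share of this cluster, had 47.9%. The noncoding gene Gm20528 covers 41.5% of the Ugt1a1 exon bases on the opposite strand. How the authors counted reads that match several genes or either strand is not given in the sources used here, and values of Gstp1, Gstp2, Gsta1, Gsta2, the Ugt1a genes, Ugt2b5, Ugt2b37 and Ugt2b38 are uncertain for this reason.

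**Figure D1:**
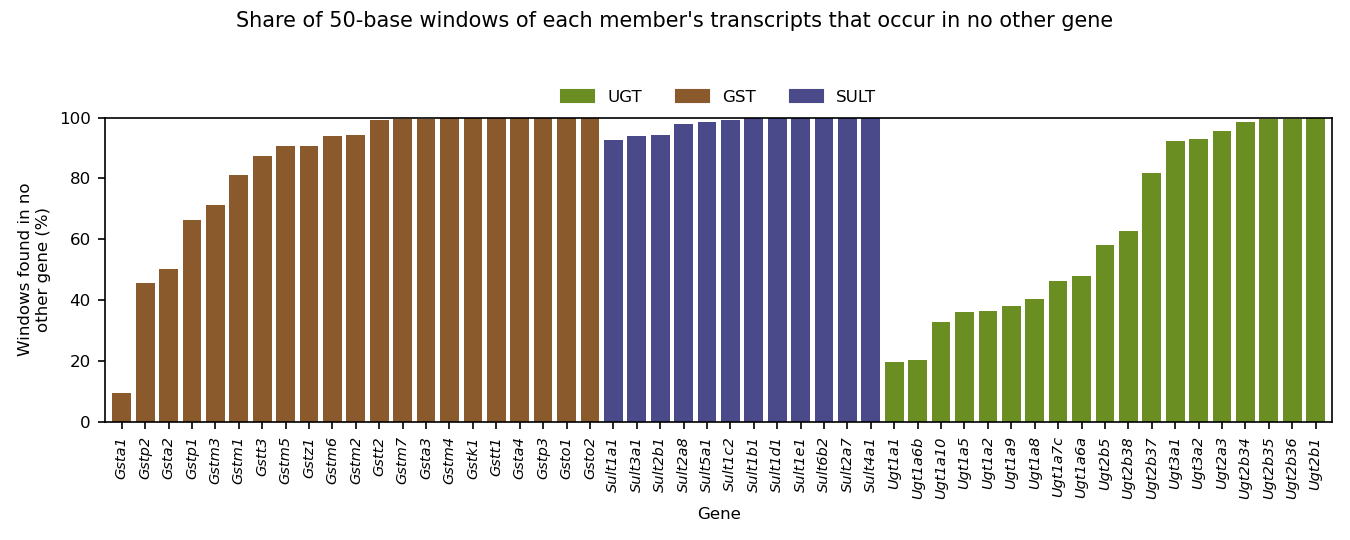
Percent of the 50-base windows of each gene's annotated transcripts that occur in no other gene's transcripts, for the 52 GST, SULT and UGT genes, ordered within each family. Gsta1, at 9.50%, Gstp2, at 45.7%, and the Ugt1a genes have the shortest bars, while every SULT gene is above 90%.

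The reads on genes numbered 26280884 to 33313914 per liver. Values are normalized counts, that is, reads divided by the authors' size factor for each liver. Group differences were taken with limma on log2(normalized count + 1), a scale that compresses the fold changes of genes with few reads. The 15352 genes tested were those averaging 5 or more, with Benjamini-Hochberg adjustment over all of them. Brap itself had normalized counts of 3641 to 4203 in the Brap LKO livers and 3994 to 4410 in the controls, so its gene count did not check the labels. The livers of Brap F/F replicates 2 and 3 stood apart from the rest. On a list of 15 male-biased liver genes their mean deviations were -0.995 and -1.42 on the log2 scale, where the other 6 livers lay between 0.13 and 0.70. On 15 female-biased genes they were 0.72 and 1.10, and the others lay between -0.83 and -0.09. All libraries were used, and values with that pair left out are also given beside many single genes, though not all. Leaving the pair out was a setting chosen after seeing the data.

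Together the 52 genes made up 0.852% ± 0.0364 (n = 4, SD) of all reads of the Brap LKO livers and 0.815% ± 0.0395 (n = 4, SD) in the controls. In normalized counts, the GST genes summed to 108644 ± 10624 (n = 4, SD) and 126296 ± 16601 (n = 4, SD), the UGT genes to 99355 ± 3577 and 94574 ± 5807, and the SULT genes to 31716 ± 1465 and 35174 ± 1960 in the same order of groups. The groups overlapped in each of these sums. As a share of reads the UGT genes stood at 0.338% to 0.367% in the Brap LKO livers and 0.293% to 0.319% in the controls, which did not overlap, so the scale decided whether the UGT groups overlapped.

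The most abundant genes per kilobase of exons were Gstp1, Gstm1, Gsta3 and Gstz1 in the GST family (plot of levels by family). In the controls the normalized count per kilobase was 14895 ± 10076 (n = 4, SD) for Gstp1, of the pi class, and 14802 ± 4081 for Gstm1, of the mu class. It was 8519 ± 2657 for Gsta3, of the alpha class, and 4224 ± 572 for Gstz1, which acts in tyrosine breakdown. The first 2 of these means differed by less than their spread. Gstt1, the fifth by the mean of all 8 livers, stood at 4267 ± 1122, level with Gstz1. Per kilobase of the transcript with the longest coding sequence, over all 8 livers, Gstz1 stood at 12038 and Gstt1 at 5380. Gsta3 and Gstm1 stood at 22578 and 23379 by that length. In the Brap LKO livers Gstp1, Gstm1, Gsta3 and Gstz1 stood at 17015 ± 901, 11481 ± 1966, 6627 ± 1023 and 3613 ± 252 per kilobase of exons.

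Among the UGT genes, Ugt2b36, Ugt2b5, Ugt2b1 and Ugt1a1, the enzyme that conjugates bilirubin, led per kilobase of exons by the mean of all 8 livers. In the controls they stood at 8289 ± 891, 6964 ± 776, 6145 ± 1034 and 4594 ± 883 per kilobase (n = 4, SD), with neighbours closer than the sum of their SDs. In the Brap LKO livers the values were 8080 ± 535, 7724 ± 334, 8237 ± 672 and 3630 ± 609, so that Ugt2b1 stood level with Ugt2b36 there. Ugt2a3 stood at 4007 ± 772 in these livers, above Ugt1a1 but within its spread. Per kilobase of the transcript with the longest coding sequence, over all 8 livers, Ugt2b34 stood at 4283 and Ugt1a1 at 4112. When length was counted only over windows that no other gene holds, Ugt1a1 led the family, at 23761 per kilobase in the controls. That length assumes that reads shared with other genes, on either strand, were not counted, which is not known here. Among the SULT genes, Sult2a8, which sulfates bile acids, stood at 6242 ± 715 per kilobase in the controls, followed by the phenol sulfotransferase Sult1a1 at 5376 ± 753, Sult1d1, which acts on catecholamines, at 1992 ± 799 and Sult1b1, which acts on thyroid hormones, at 329 ± 38.4. The gap from Sult1d1 to Sult1b1 was larger than the spread of either.

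**Figure D2:**
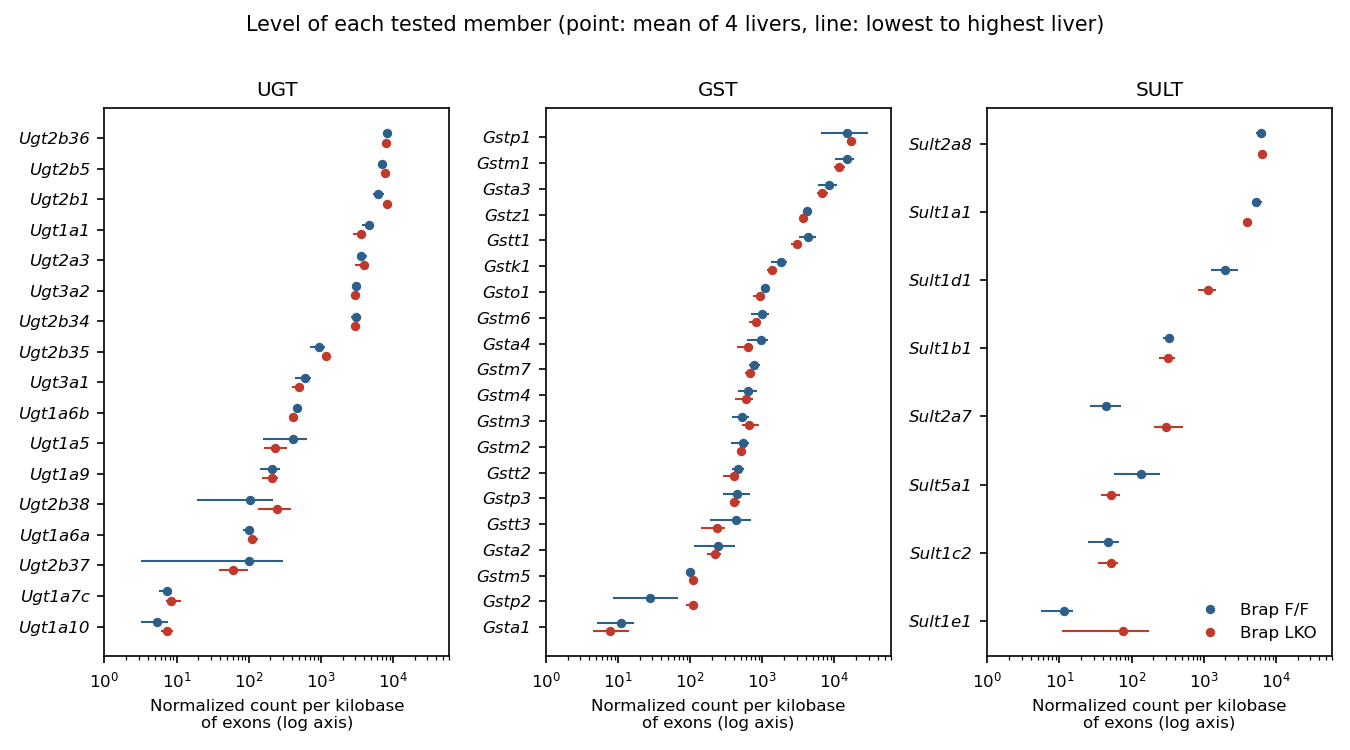
Normalized count per kilobase of exons (log axis) of the 45 tested genes in each family, for Brap F/F and Brap LKO livers; points are means of 4 livers and lines run from the lowest to the highest liver. The lines of Gstp1, Ugt2b37, Ugt2b38 and Gstp2 are long in the Brap F/F group, and those of Sult2a7 do not overlap between groups.

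Those under the minimum numbered 7, with at most 7 reads in any liver, and they were Ugt1a2, Ugt1a8, Sult2b1, Sult3a1, Sult4a1, Sult6b2 and Gsto2. Sult3a1, a gene expressed mainly in female mice, had at most 6 reads. Ugt1a8 and Sult6b2 had 0 reads in every Brap F/F liver, which allows up to 3 reads per liver by counting error. The other 45 genes were tested, 20 GST, 17 UGT and 8 SULT.

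With limma and an adjusted p-value under 0.05, 1 of the 45 genes was higher in the Brap LKO livers and 0 were lower. Of all genes tested, 0.664% were higher and 0.104% lower by this rule. At an unadjusted p-value under 0.05, 6 of the 45 were higher and 7 lower, where 9.23% and 6.59% of all genes were. By family these were 1 higher and 4 lower of 20 GST genes, 3 higher and 0 lower of 17 UGT genes, and 2 higher and 3 lower of 8 SULT genes. With edgeR's quasi-likelihood test on the recovered reads the adjusted counts were again 1 and 0 (0.703% and 0.0912% of all genes), and DESeq2 gave 4 higher and 2 lower, beside 2.96% and 1.11% of all genes. All livers of one group lay above all of the other in 2 genes that were higher, Sult2a7 and Gstp2, and in 1 that was lower, Sult1a1 (5.48% and 4.39% of all genes).

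Most fitted changes were small (plot of fold changes). The median log2 fold change was -0.21 over the GST genes, 0.13 over the UGT genes and 0.0056 over the SULT genes, where that of all genes tested was -0.01. Of the GST genes, 15 lay below 0 and 5 above, and of the UGT genes, 7 below and 10 above. The GST median rested on Brap F/F replicates 2 and 3, since it was 0.01 with that pair left out. Scaling every liver to 1 total gave -0.05 for the GST and 0.29 for the UGT median, a step that moved the median of all genes to 0.15.

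**Figure D3:**
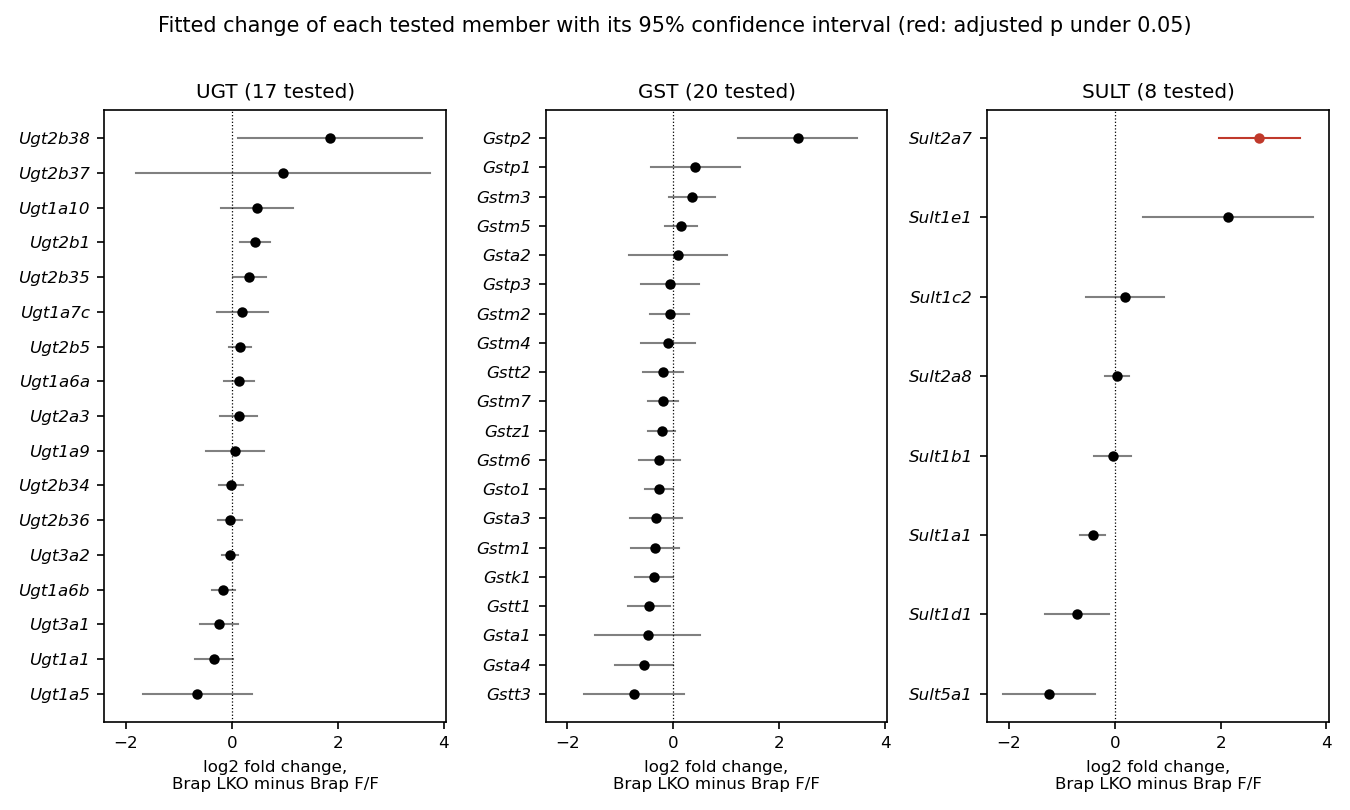
Log2 fold change (Brap LKO minus Brap F/F) with its 95% confidence interval from limma for the 45 tested genes, ordered within each family. Sult2a7, in red, is the gene with an adjusted p-value under 0.05. Ugt2b37 has the widest interval, from -1.80 to 3.75.

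Sult2a7, of the hydroxysteroid sulfotransferases that act on steroids and bile acids, was the gene that rose. It lies on chromosome 7 of mm10 from 14465051 to 14494230. Its normalized counts were 341, 652, 299 and 259 in Brap LKO replicates 1 to 4 and 57.0, 45.8, 91.5 and 34.3 in Brap F/F replicates 1 to 4. Every Brap LKO liver lay above every Brap F/F liver, with 259 as the lowest and 91.5 as the highest value on either side. The log2 fold change was 2.74 (95% confidence interval, CI, 1.97 to 3.51, limma adjusted p = 0.0155; exact two-sided permutation test, p = 0.0286, the smallest that 4 livers against 4 allow). Without Brap LKO replicate 1 the adjusted p from limma was 0.0615 and without Brap F/F replicate 2 it was 0.0524, with log2 fold changes of 2.77 and 2.66. With the pair of Brap F/F replicates 2 and 3 left out the change was 3.005 (limma adjusted p = 0.0170).

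The neighbour Sult2a8, from 14410686 to 14446769 on the same strand, was far more abundant, with close group means. Its normalized counts were 21595, 21996, 20222 and 20567 in the Brap LKO livers and 23218, 17482, 20664 and 20626 in the controls. The groups overlapped, and the log2 fold change was 0.05 (95% CI -0.18 to 0.27, limma adjusted p = 0.839). Sult2a7 was counted at 1.82% ± 0.775 (n = 4, SD) of Sult2a8 in the Brap LKO livers and 0.279% ± 0.117 (n = 4, SD) in the controls. This ratio did not overlap between the groups.

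Sult1e1, the estrogen sulfotransferase, had normalized counts of 13.7, 101, 49.6 and 214 in the Brap LKO livers and 17.1, 14.2, 18.9 and 6.87 in the controls. Replicate 1 of the Brap LKO group lay among the controls and the other 3 above all of them. Its log2 fold change of 2.14 (95% CI 0.53 to 3.75) did not pass the threshold with limma (adjusted p = 0.207), and with DESeq2 it did (adjusted p = 0.00224, in a range of 0.00224 to 0.354 over the alternatives). Sult1e1, Sult1d1 and Sult1b1 lie in a row on chromosome 5, from 87513339 to 87591594, next to the Ugt2 cluster, with log2 fold changes of 2.14, -0.72 and -0.04.

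Of the SULT genes with fitted values below 0, Sult1a1 was the gene whose groups did not overlap. Its normalized counts were 5944, 5834, 6843 and 5557 in the Brap LKO livers and 7682, 9763, 7763 and 7200 in the controls. The fitted change was -0.42 on the log2 scale (95% CI -0.66 to -0.18, limma adjusted p = 0.111; exact two-sided permutation test, p = 0.0286). It passed the threshold with DESeq2 (adjusted p = 0.0203, in a range of 0.0203 to 0.293 over the alternatives), and it was -0.30 (limma adjusted p = 0.169) with the pair of Brap F/F replicates 2 and 3 left out. Of its exon bases, 61 (4.05%) overlap Sgf29 on the opposite strand.

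Sult5a1, on chromosome 8 from 123140192 to 123158315, had normalized counts of 168, 264, 305 and 181 in the Brap LKO livers and 1097, 521, 252 and 534 in the controls. The control replicate 3 lay within the Brap LKO range and the other 3 controls above it. The log2 fold change was -1.24 (95% CI -2.11 to -0.37, limma adjusted p = 0.180). It was -1.78 (limma adjusted p = 0.0461) with the pair of Brap F/F replicates 2 and 3 left out, and -1.39 (adjusted p = 0.00987) with DESeq2, and over all alternatives the adjusted p ran from 0.00987 to 0.411. Sult1d1 stood at 2773, 2928, 3661 and 2080 in the Brap LKO livers and 3611, 7463, 5386 and 3132 in the controls. Brap F/F replicates 2 and 3 were the highest 2 livers and the other controls overlapped the Brap LKO range (log2 fold change -0.72, limma adjusted p = 0.250), and the change was -0.26 (limma adjusted p = 0.534) with that pair left out. Sult1b1 had a log2 fold change of -0.04 (95% CI -0.39 to 0.31), and Sult1c2 of 0.19 (95% CI -0.54 to 0.93), or 0.72 (limma adjusted p = 0.265) with the pair left out.

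**Figure D4:**
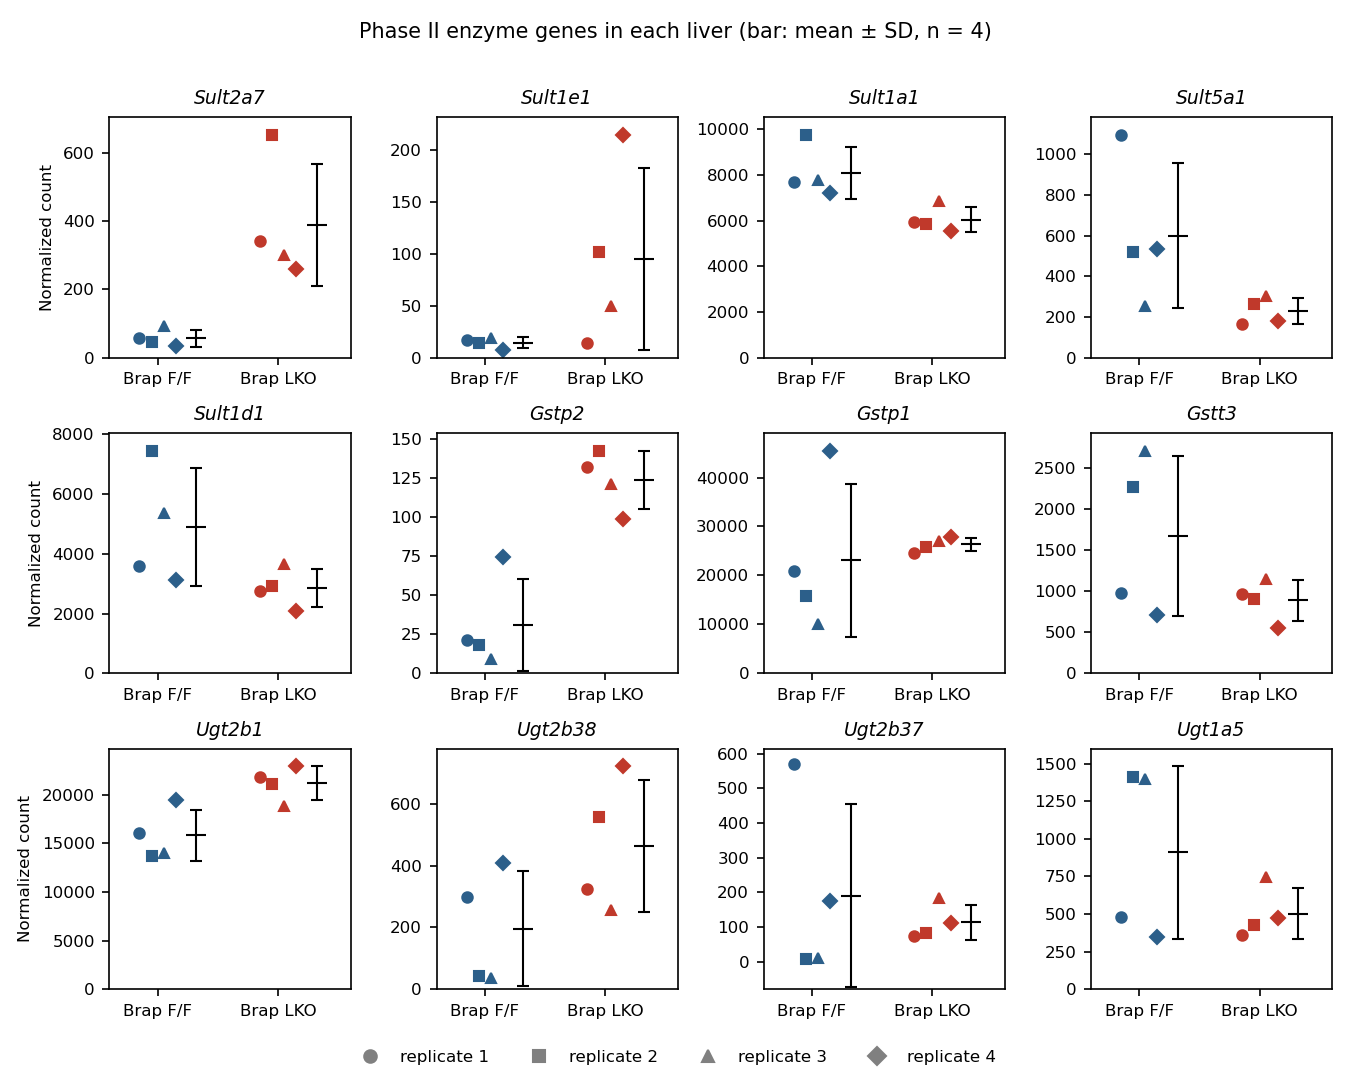
Normalized counts of 12 genes in each liver (linear axis), with symbols by replicate and bars for the mean ± SD of 4 livers; the lower bar of Ugt2b37 in the Brap F/F group runs below 0. The groups do not overlap for Sult2a7, Gstp2 and Sult1a1, and Brap F/F replicates 2 and 3 are the highest livers for Gstt3 and Ugt1a5 and the lowest for Ugt2b37 and Ugt2b38.

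Among the GST genes, Gstp2 had the largest fitted rise. Its normalized counts were 132, 143, 121 and 98.8 in the Brap LKO livers and 21.7, 18.3, 9.46 and 74.6 in the controls. Every Brap LKO liver lay above every control, of which replicate 4 came closest. On the log2 scale the change was 2.35 (95% CI 1.22 to 3.48) and did not pass the threshold with limma (adjusted p = 0.0750; exact two-sided permutation test, p = 0.0286). It passed the threshold without Brap F/F replicate 4 (2.90, limma adjusted p = 0.00537), with the same total per liver (limma adjusted p = 0.0360) and with DESeq2 (adjusted p = 0.00331). With the pair of Brap F/F replicates 2 and 3 left out the change was 1.58 (limma adjusted p = 0.110), and over all alternatives the adjusted p ran from 0.00331 to 0.220.

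Gstp1, its near copy, was counted far more often, at 24679, 25778, 27058 and 27839 in the Brap LKO livers and 20876, 15707, 10139 and 45510 in the controls. The Brap LKO livers were close to each other, with a coefficient of variation of 5.29%, while the controls spread on both sides of them with 67.6%. The log2 fold change was 0.42 (95% CI -0.42 to 1.25, limma adjusted p = 0.609) and -0.23 with the pair of Brap F/F replicates 2 and 3 left out. Gstp2 was counted at 0.473% ± 0.0911 (n = 4, SD) of Gstp1 in the Brap LKO livers and 0.119% ± 0.0311 (n = 4, SD) in the controls. This ratio ran from 0.355% to 0.554% and from 0.0933% to 0.164%, so the groups did not overlap in it either. Gstp3, the remaining pi class gene, had 324 to 450 normalized counts over the Brap LKO livers and 262 to 621 over the controls (log2 fold change -0.06, limma adjusted p = 0.930). Its change was 0.38 (limma adjusted p = 0.239) with the pair of Brap F/F replicates 2 and 3 left out.

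Of the alpha, mu and theta classes, 3 of 4 Gsta, 5 of 7 Gstm and 3 of 3 Gstt genes had fitted values below 0, with 0 past the adjusted threshold and 1, 0 and 1 at an unadjusted p-value under 0.05. Gstt3 stood at 967, 903, 1152 and 550 in the Brap LKO livers and 983, 2279, 2718 and 714 in the controls. Brap F/F replicates 2 and 3 were above all other livers, and the log2 fold change of -0.74 (limma adjusted p = 0.416) was 0.04 with that pair left out. Of its exon bases 13.6% are shared with Gm20441 on the same strand. Gstt1, known for conjugating halogenated methanes, stood at 4846, 4713, 5190 and 3804 against 5223, 7344, 8539 and 4977, with overlapping groups (log2 fold change -0.46, limma adjusted p = 0.260). The same pair was highest, and the change was -0.15 (limma adjusted p = 0.597) with it left out.

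Gsta4, which conjugates the lipid peroxidation product hydroxynonenal, stood at 896, 836, 937 and 558 in the Brap LKO livers and 767, 1528, 1534 and 1016 in the controls. The same pair of controls was highest (log2 fold change -0.55, limma adjusted p = 0.312), and without it the change was -0.16 (limma adjusted p = 0.750). The abundant Gsta3 had 25166 to 34964 and 25882 to 46986 normalized counts (log2 fold change -0.32), and Gstm1 had 14434 to 20803 and 15244 to 27416 (log2 fold change -0.34). In both genes the groups overlapped and the pair of controls was highest, and with the pair left out the values were 0.08 and 0.0072. Gstz1 stood at 18381 ± 1280 (n = 4, SD) and 21489 ± 2909 (n = 4, SD), a log2 fold change of -0.22 (limma adjusted p = 0.376). Its change was -0.07 (limma adjusted p = 0.781) with the pair left out. Gsta2 had 204 to 315 normalized counts among the Brap LKO livers and 133, 373, 498 and 136 in the controls, and the Brap LKO livers lay between the extremes of the controls. Its log2 fold change of 0.09 (limma adjusted p = 0.933) was 0.92 with the pair left out (limma adjusted p = 0.0486). That setting was chosen after seeing the data and drops its highest controls, at 373 and 498. Gsta1 was near the minimum, at 4.25 to 13.5 and 4.91 to 15.8, and 97.6% of its coding sequence matches Gsta2.

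Among the UGT genes, the 3 with unadjusted p-values under 0.05 were Ugt2b1, Ugt2b35 and Ugt2b38, all of the Ugt2 cluster on chromosome 5 between 86889767 and 87424203. Enzymes of this cluster conjugate steroids, bile acids and many drugs. Ugt2b1 had normalized counts of 21859, 21149, 18844 and 22923 in the Brap LKO livers and 16030, 13668, 14060 and 19487 in the controls. Only control replicate 4 reached into the Brap LKO range. The log2 fold change was 0.43 (95% CI 0.15 to 0.71, limma adjusted p = 0.152; exact two-sided permutation test, p = 0.0571), and it passed the threshold without Brap F/F replicate 4 (limma adjusted p = 0.0456) and with DESeq2 (adjusted p = 0.0384). With the pair of Brap F/F replicates 2 and 3 left out, its 2 lowest livers, the change was 0.26 (95% CI -0.02 to 0.53, limma adjusted p = 0.324), and over all alternatives the adjusted p ran from 0.0384 to 0.360. Ugt2b35 stood at 3931 ± 328 (n = 4, SD) and 3163 ± 633 (n = 4, SD), a log2 fold change of 0.33 (limma adjusted p = 0.291). Its change was 0.22 (limma adjusted p = 0.419) with the pair left out.

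Ugt2b38 had normalized counts of 324, 556, 258 and 722 in the Brap LKO livers and 299, 42.7, 36.8 and 407 in the controls. Brap F/F replicates 2 and 3 were far below the other 6 livers, and the other 2 controls lay within the Brap LKO range. It had a fitted log2 change of 1.85 (95% CI 0.11 to 3.59, limma adjusted p = 0.294), which was 0.30 (95% CI -0.57 to 1.16, limma adjusted p = 0.737) with the pair left out. Ugt2b37 showed the same pair at the bottom, with 569, 6.10, 11.6 and 175 in the controls and 73.8, 83.3, 184 and 112 in the Brap LKO livers. Its highest control was 93.2 times its lowest, the log2 fold change was 0.97 (limma adjusted p = 0.724), and with the pair left out it was -1.56. The coding sequences of Ugt2b37 and Ugt2b38 are 94.1% identical.

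The remaining Ugt2 genes had fitted values closer to 0. Ugt2b5 had normalized counts of 13728 to 15164 in the Brap LKO livers and 11649 to 14255 in the controls (log2 fold change 0.16, limma adjusted p = 0.445), and Ugt2b36 had 15239 to 17814 and 15114 to 18680 (log2 fold change -0.03, 95% CI -0.25 to 0.19). Ugt2b34 and Ugt2a3 had log2 fold changes of -0.02 and 0.13. The 2 Ugt3a genes, which use other sugar donors than UDP-glucuronic acid, stood at -0.25 for Ugt3a1 and -0.04 for Ugt3a2.

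None (0) of the 7 tested Ugt1 genes passed the adjusted threshold with limma, edgeR or DESeq2, and 0 had an unadjusted p-value under 0.05 with limma. Ugt1a1 stood at 9349, 8047, 8692 and 6204 in the Brap LKO livers and 8860, 11543, 12229 and 8237 in the controls. The groups overlapped, with Brap F/F replicates 2 and 3 highest (log2 fold change -0.34, 95% CI -0.70 to 0.03), and the change was -0.10 (95% CI -0.45 to 0.25) with the pair left out. Ugt1a5 stood at 360, 429, 748 and 474 and at 481, 1410, 1396 and 350 in the same order. Again that pair was highest, and the log2 fold change of -0.65 (limma adjusted p = 0.512) was 0.24 with the pair left out. Ugt1a6a, Ugt1a6b and Ugt1a9, known for conjugating phenols, had log2 fold changes of 0.13, -0.16 and 0.06. Ugt1a10 was at 13.6 to 20.2 and 7.36 to 17.1 normalized counts (log2 fold change 0.47, limma adjusted p = 0.474).

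The spread among the controls was wide for many of the genes (map of deviations by liver). The coefficient of variation was larger in the Brap F/F than in the Brap LKO livers for 34 of 45 genes, or 75.6%, where it was so for 64.1% of all genes tested. Its median was 22.7% in the controls and 15.4% in the Brap LKO livers, and 15.4% and 11.8% over all genes. Ugt3a2 was the steadiest gene among the controls, at 9408 to 9811 normalized counts.

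**Figure D5:**
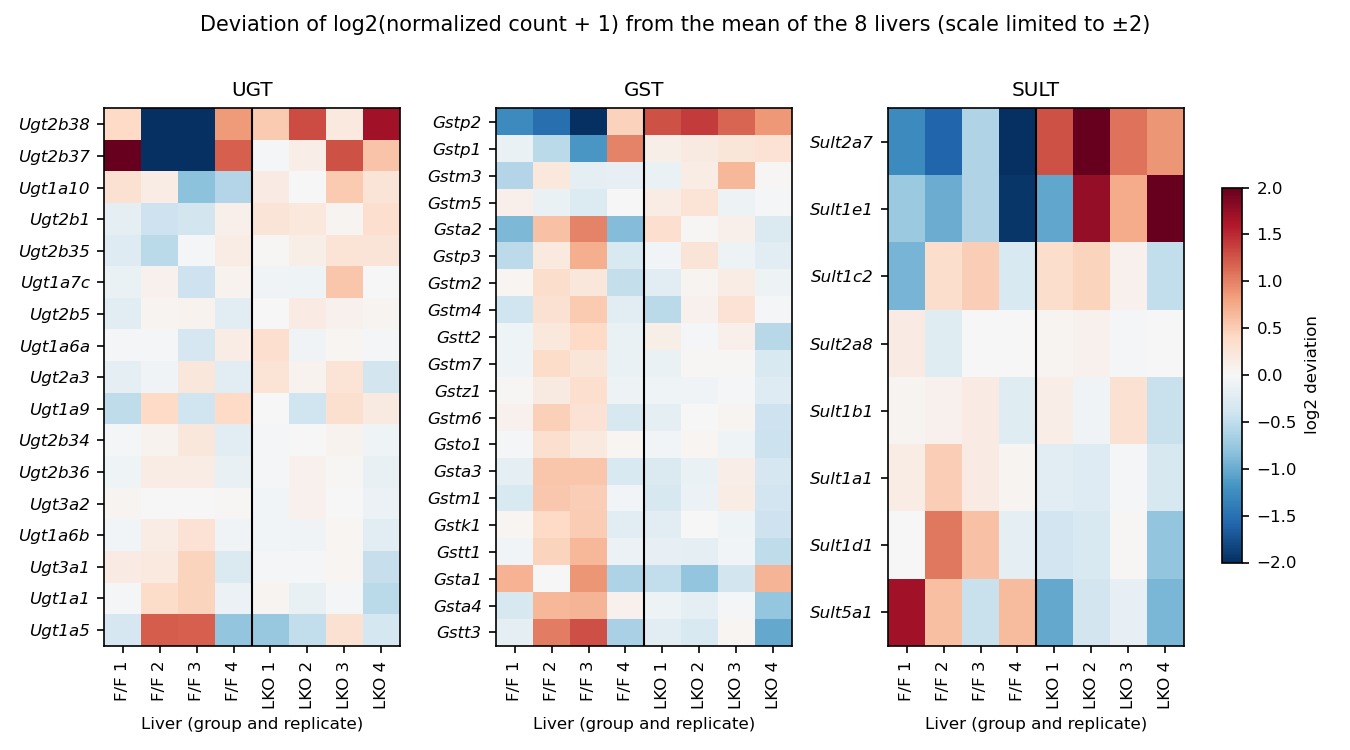
Deviation of log2(normalized count + 1) from each gene's mean over the 8 livers, by family, with Brap F/F livers to the left of the line and Brap LKO livers to the right; colours are limited to ±2. Columns F/F 2 and F/F 3 are red for most GST genes and for Ugt1a5, and blue for Ugt2b37 and Ugt2b38.

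Upstream sequence was read from RefSeq promoters of the GRCm38.p6 build, from 250 bases before to 50 after the start, which matched 46 of the 52 genes (57 promoters). Sult2a7 was not among them. Gstp1 and Gstp2 hold the same 30 bases around a match to the AP-1 motif TGACTCA, shown in capitals on the minus strand as TGAGTCA, at chr19:4037969-4037998 and chr19:4042293-4042322.
Gstp1 and Gstp2: tctccaacgtgtTGAGTCAgcatccggggc
The match starts 74 bases before the RefSeq start of Gstp1 and 89 before that of Gstp2. In GENCODE, exons cover 73 of the 250 bases before the Gstp1 start and 42 of those before the Gstp2 start. The Gstp1 match, at 74 to 68 bases before the start, therefore lies in an annotated exon but for its first base. On either strand, this motif was found in 6 of the 57 promoters and in 5.20% of all 32851 promoters in the table. The upstream stretches of Ugt2b37 (chr5:87254909-87255028) and Ugt2b38 (chr5:87424310-87424429), both on the minus strand, differ at 7 of 120 bases, in capitals. They are shown because both genes were lowest in the same pair of controls. Among stretches tried around the Ugt2b37 match to TGACTCA, they were picked for the fewest differing bases.
Ugt2b37: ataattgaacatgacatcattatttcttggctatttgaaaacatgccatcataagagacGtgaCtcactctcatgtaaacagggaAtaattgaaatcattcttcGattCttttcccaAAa
Ugt2b38: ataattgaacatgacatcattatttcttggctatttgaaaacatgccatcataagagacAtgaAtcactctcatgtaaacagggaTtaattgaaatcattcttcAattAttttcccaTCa
The first of these holds TGACTCA and the second does not. Of the other motifs searched on both strands, the antioxidant response core TGACNNNGC was in 3 of the 57 promoters (12.4% of all), the xenobiotic response core GCGTG in 13 (32.4% of all), the half-sites AGGTCA and AGTTCA of nuclear receptors in 12 and 8 (16.3% and 14.0% of all), and the STAT5 motif TTCNNNGAA in 4 (8.30% of all). TGACTCA and TGACNNNGC share their first bases and can overlap.

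The genes that supply and regulate conjugation were read from lists. Of 19 regulators, 0 passed the adjusted threshold in either direction with limma. At an unadjusted p-value under 0.05, 0 were higher and 1 lower, Nr1i2, which encodes PXR (log2 fold change -0.39). Nr1i2 was highest in Brap F/F replicates 2 and 3, at 5319 and 4902 normalized counts. The other controls stood at 3698 and 3289, and the Brap LKO livers at 3037 to 3440. The receptor CAR, encoded by Nr1i3, had a log2 fold change of -0.22 and the redox factor gene Nfe2l2 of 0.02. The 9 genes of UDP-glucuronic acid supply, 7 of PAPS supply and 13 of glutathione synthesis and recycling held 0 called genes each, with medians of -0.18, -0.02 and -0.10 on the log2 scale. Ugdh, which makes UDP-glucuronic acid, stood at -0.28 (limma adjusted p = 0.250), Papss2, which makes PAPS, at 0.03, and Gclc, the catalytic subunit of glutathione synthesis, at -0.14. Unadjusted p-values under 0.05 were held by 2, 0 and 2 genes of these lists. Of the 17 other conjugation enzymes tested, 0 passed (2 at an unadjusted p-value under 0.05), among them Nat8, which acetylates cysteine conjugates made from glutathione conjugates, at 0.49 (limma adjusted p = 0.157).

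Export pumps for conjugates held 0 called genes of 9, although in Abcc4 and Abcb1b all Brap LKO livers lay above all controls. Abcc4, a pump for sulfated and glucuronidated compounds, stood at 129 ± 8.35 (n = 4, SD) and 76.1 ± 24.2 (n = 4, SD), a log2 fold change of 0.80 (limma adjusted p = 0.111). Abcb1b stood at 123.1 ± 37.5 (n = 4, SD) and 49.1 ± 16.5 (n = 4, SD), a log2 fold change of 1.31 (limma adjusted p = 0.0683).

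Targets of the regulators outside the families differed by list. All 18 tested CAR and PXR targets lay below 0, with a median of -0.33, 5 unadjusted p-values under 0.05 and 1 gene that fell at the adjusted threshold, Cyp2c37. Cyp2c37, a cytochrome P450, stood at 3175 ± 526 (n = 4, SD) and 5589 ± 797 (n = 4, SD), a log2 fold change of -0.82 (limma adjusted p = 0.0417). Cyp2b10, the classic CAR target, stood at 72.0, 63.7, 165 and 32.2 in the Brap LKO livers and 222, 1483, 657 and 108 in the controls, with 1 Brap LKO liver among the controls (log2 fold change -2.46, limma adjusted p = 0.180). The mean deviation over this list was 0.73 and 0.85 in Brap F/F replicates 2 and 3, and it was 0.16 and -0.44 in the other controls and between -0.69 and -0.08 in the Brap LKO livers. Of 17 NRF2 targets and 6 AHR targets, 0 passed with limma (2 and 1 at an unadjusted p-value under 0.05), with medians of -0.04 on both lists. Nqo1, on both lists, stood at -0.07. Of the zonal genes, 20 pericentral genes had a median of 0.28, with Rhbg higher (0.94, limma adjusted p = 0.0313). At an unadjusted p-value under 0.05 with limma, 9 of them were higher and 3 lower. The 19 periportal genes had a median of -0.19, with Aldh1b1 higher (0.53, limma adjusted p = 0.0177). At the unadjusted threshold 1 periportal gene was higher and 1 lower. Of all genes tested, 9.23% were higher and 6.59% lower at that threshold.

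Most markers of other cell types had fitted values above 0. Of all genes tested, 0.664% were higher at the adjusted threshold with limma. Higher by this rule were 1 of 11 markers for cholangiocytes and 2 of 14 for macrophages and monocytes. For stellate cells and fibroblasts it was 1 of 12, for sinusoidal endothelium 0 of 11 and for lymphocytes 0 of 11. Of 11 cholangiocyte markers tested, 11 lay above 0 (median 0.95, 8 at an unadjusted p-value under 0.05), and their summed normalized count was 3323 to 6651 in the Brap LKO livers and 1388 to 4079 in the controls. Of 14 macrophage and monocyte markers, 13 lay above 0 (median 0.55, 6 at an unadjusted p-value under 0.05), with sums of 5300 to 9162 and 5049 to 6868. Of 12 stellate cell and fibroblast markers, 10 lay above 0 (median 0.45, 6 at an unadjusted p-value under 0.05). Their sums were 10242 to 15499 and 7485.2 to 13795. Of 11 lymphocyte markers, 10 lay above 0 (median 0.59, 4 at an unadjusted p-value under 0.05, sums of 424 to 673 and 300 to 406). Of all genes tested, 9.23% were higher and 6.59% lower at the unadjusted threshold with limma. The 11 sinusoidal endothelium markers had a median of 0.17, with 0 at an unadjusted p-value under 0.05. Only the lymphocyte sums did not overlap between the groups among these 5 lists. No marker in these lists was at 0 in all livers. Of 11 hepatocyte markers, 8 lay below 0 (median -0.18), and their sum exceeded that of every other cell type list in each liver. The part of cell composition in the changes of Sult2a7, Gstp2, Sult1e1 and Sult1a1 was not tested.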

How the data were processed

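The authors extracted RNA with TRIzol and columns, made NuGEN Universal Plus mRNA libraries, sequenced 50-base single reads and aligned them to mm10 with STAR 2.6.0c; the counting tool, annotation release and use of strand are not given in the sources used here. The deposited signal is the count of reads per gene over the size factor that DESeq2 gave each liver. Every value (100%, within 0.001 reads) was a whole multiple of what 1 read is worth, so reads were recovered for count tests. A table of their own DESeq2 comparison (mean, fold change, p-values) was not used.

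Groups follow the deposited labels, and 0 columns of values were left out. The main test was limma 3.58.1 in R 4.3.3 (lmFit, eBayes with trend) on log2(normalized count + 1), for genes with a mean of at least 5, without covariates, at an adjusted p-value of 0.05. It was tested on simulated data, with a limit on false calls set for limma and edgeR and not for DESeq2. Alternatives were edgeR 4.0.16, DESeq2 1.42.0, other pseudocounts, filters and normalizations, eBayes settings, a replicate block, the animal number series and each liver left out. Single genes had exact permutation tests over 70 arrangements. Positions, exons and lengths came from GENCODE vM21 of the same build. Depth was 26280884 to 33313914 reads per liver. Each library is labelled with an animal number of its own, and p-values measure the spread between these livers. Intervals rest on that spread and floors on counting error only.

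Members and lists were chosen with earlier results of these data known. Genes named with values are those past the threshold, the 8 largest rises and 8 largest falls, the 4 highest per kilobase in each family, those whose groups did not overlap, and Brap. Ugt2b35, Gsta2, Gstp3, Ugt3a2 and the other genes given with values were chosen after their values were seen.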

Additional observations from a re-analysis of the deposited data

How the results depend on the processing

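Of 526 fold changes of 24 named genes recomputed under other settings, 492 kept direction and side of the threshold, 2 lost the call, 9 gained it and 23 reversed, none of them past the threshold. Sult2a7 was above 0 throughout (log2 fold change 2.45 to 3.005, adjusted p from 5.71e-12 to 0.0615). Limits lie in 4 livers a group, near copies that share reads, and Brap F/F replicates 2 and 3.

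The members called higher, 1 in the report, were 2 with the same total per liver, 4 with DESeq2, 0 to 3 with each liver left out in turn and 2 (Gsta2 and Sult2a7) with the pair of Brap F/F replicates 2 and 3 left out, a setting chosen after seeing the data. The members called lower, 0 in the report, were 2 with DESeq2, 1 with the pair left out and 0 with any single liver left out. Over all genes, the 102 higher were 62 with quantile normalization, 459 with the same total, 455 with DESeq2 and 11 (without Brap LKO replicate 1) to 178 (without Brap F/F replicate 4). The 16 lower were 9 with a minimum mean of 20, 170 with DESeq2, 48 with the pair left out and 4 (without Brap F/F replicate 2) to 54 (without Brap F/F replicate 4). The median log2 fold change of the members was 0.12 with the same total and -0.16 to 0.010 with each liver left out. That of the UGT genes was 0.29 with the same total, that of the SULT genes 0.30 with no filter (12 genes), and that of the GST genes 0.011 with the pair left out. The cause of these moves was not tested.

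Reversed log2 fold changes were as follows. Ugt2b36 was 0.12 with quantile normalization and with the same total, 0.0085 without Brap LKO replicate 4, 0.013 without Brap F/F replicate 2, 0.010 without replicate 3 (range -0.089 to 0.013) and 0.10 with the pair left out. Sult1b1 was 0.12 with the same total, 0.10 without Brap LKO replicate 4, 0.013 without Brap F/F replicate 3 (range -0.15 to 0.10) and 0.076 with the pair left out. Ugt2b37 was -0.13 with the animal number series as a covariate, -0.0096 without Brap F/F replicate 2 (range -0.0096 to 2.10), -1.56 with the pair left out, -0.73 with edgeR and -0.75 with DESeq2. Sult2a8 was -0.026 with the animal series and without Brap F/F replicate 2 (range -0.026 to 0.11) and -0.054 with the pair left out. With the pair left out Gsta3 was 0.079, Ugt1a5 0.24, Gstm1 0.0072, Gstt3 0.042 and Gstp1 -0.23.

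A check of whether replicate numbers pair the livers did not decide it. Deviations of same-numbered livers correlated at -0.13, 0.0034, 0.20 and 0.29, while 3 of 4 Brap LKO livers correlated best with their own number. With the replicate block 80 genes were higher and 15 lower, the members called remained 1 higher (Sult2a7) and 0 lower, and no call on a named gene changed. Of the animal number series, the lower had 3 knockout livers beside 1 control and the higher 1 beside 3, too few for a comparison within either. By Dixon's ratio 0 of 48 groups of 4 livers held an outlying liver, where chance gives 2.4. This ratio looks for a single extreme liver and can miss a pair that deviates together, such as Brap F/F replicates 2 and 3.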
